A study of Mus musculus with 12 samples.

Results

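The guanylate-binding proteins are large GTPases that interferons induce, and 10 of their genes (Gbp2, Gbp3, Gbp4, Gbp5, Gbp6, Gbp7, Gbp8, Gbp9, Gbp10 and Gbp11) were followed here through bulk RNA-seq of mouse breast tumors. The genes were found by the symbol that the expression table pairs with each Ensembl gene, which gave 10 of its 55401 rows. The family was selected on its measured levels: the differences between treated and control tumors were known when it was taken up. The study asked how interleukin-10 acts in a tumor when it is joined to an antibody that blocks CSF1R, the receptor on which macrophages depend, beside each component alone. Cells of 4T1, a mouse mammary carcinoma line, were injected orthotopically into Balb/c mice, and the labels place the start of treatment at a tumor volume of 100 mm3. The control group received an isotype IgG, the aCSF1R group the antibody, the IL-10-Fc group interleukin-10 (the human protein, per the study's methods) fused to an Fc part, and the BF10 group the antibody fused to interleukin-10, with 3 tumors and 1 library per tumor in each group. All 4 groups carried the same cell line in the same mouse strain, no animal was untreated, and the labels do not give the age of the mice. The labels state 6 doses and the series description fewer, which leaves the dosing uncertain. The labels call the cells breast cancer, and the epithelial genes Epcam, Krt8 and Krt18 were present in every library (at least 31.9 TPM for Epcam), in whole tissue that also held RNA of other cell types.

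Guanylate-binding proteins belong to the dynamin superfamily of GTPases. Interferon-gamma induces them, and GAS elements and interferon-stimulated response elements (ISREs) in front of a gene are the sequences through which interferons act on it. The proteins assemble on pathogen vacuoles and on bacterial membranes, and they work with caspase-11 (Casp4), the inflammasome sensors AIM2 and NLRP3, the immunity-related GTPases and the ATG conjugation machinery of autophagy. In tumors their RNA is often read as a sign of exposure to interferon. In the mouse the genes lie in 2 clusters. On chromosome 3 (GRCm38, plus strand) Gbp5, Gbp7, Gbp3 and Gbp2 lay within 142493978 to 142638008, a stretch of 144031 bases that also holds Gbp2b. On chromosome 5 (minus strand) Gbp8, Gbp9, Gbp4, Gbp10, Gbp6 and Gbp11 lay within 105014150 to 105346472, a stretch of 332323 bases. The annotation gave 9 of the 10 genes as protein coding and Gbp11 as a polymorphic pseudogene.

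The promoters of the chromosome 3 genes were read for the letters of both elements, because these are the sites through which interferon is known to reach the family. RefSeq promoter windows (GRCm38.p6, 250 bases before to 50 bases after an annotated start) were matched for 4 of the 10 genes, with 2 starts for Gbp3. GAS was searched as TTCNNNGAA and an ISRE-type element as GAAA, any 2 bases and GAAA, on both strands. The windows below are printed on the plus strand, so that an ISRE-type match reads from TTTC to TTTC, and capitals mark the match.
Gbp5, ISRE-type, chr3:142496759-142496788: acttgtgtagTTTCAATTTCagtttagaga
Gbp5, GAS, chr3:142496872-142496900: tggccgttatTTCTCAGAAccaagcacag
Gbp7, GAS, chr3:142530220-142530248: tccgttttctTTCCAGGAAaagcagaagc
Gbp7, GAS, chr3:142530239-142530267: aagcagaagcTTCTCAGAAagtcagcaca
Gbp7, ISRE-type, chr3:142530273-142530302: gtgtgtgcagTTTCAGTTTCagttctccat
Gbp3, ISRE-type, chr3:142559992-142560021: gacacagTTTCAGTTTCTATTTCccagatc
Gbp2, ISRE-type, chr3:142620594-142620623: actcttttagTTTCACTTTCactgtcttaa
Gbp2b, ISRE-type, chr3:142594700-142594729: gtacttctaaTTTCACTTTCttctttatca

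An ISRE-type match stood in 4 of the 5 promoters of the listed genes and a GAS match in 2, those of Gbp5 and Gbp7. Of 32851 mouse promoters of the same length, 3.44% held the ISRE-type letters, 8.3% the GAS letters and 0.454% both. In Gbp7 the ISRE-type match lay 53 to 44 bases before the start and the GAS matches 106 to 98 and 87 to 79 bases before it. The Gbp3 window held 2 overlapping ISRE-type matches, 45 to 30 bases before its first start, and the window of its second start held none. In Gbp2 the match lay 59 to 50 bases before the start. The 250 bases before the start overlapped annotated exons of the same gene in Gbp5, in Gbp2 and at both starts of Gbp3. These windows are therefore not wholly in front of the gene as its span is given here. Gbp5 had a further GAS match, TTCTGGGAA, 245 to 237 bases before the start. A match describes letters in a window, and binding of a factor was not measured here.

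**Figure D1:**
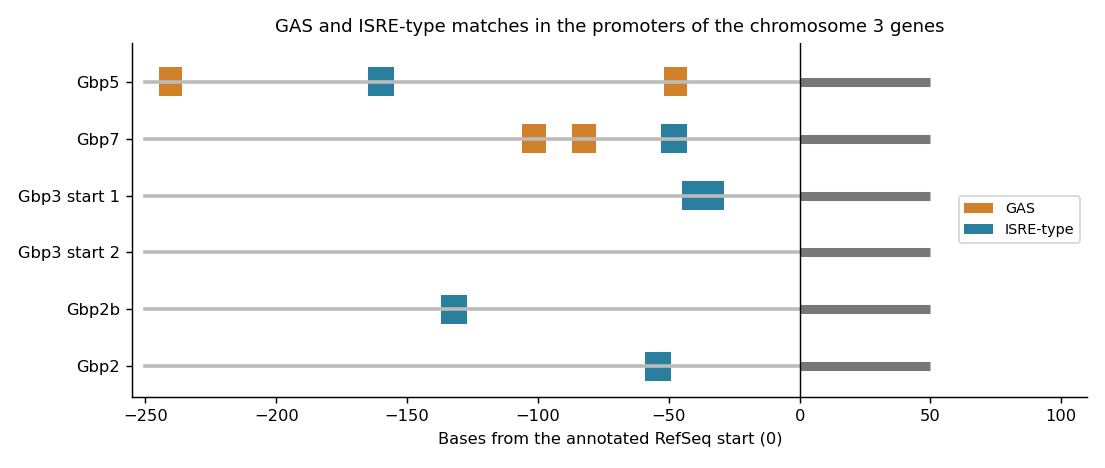
Positions of the GAS (orange) and ISRE-type (blue) matches in the RefSeq promoter windows of the chromosome 3 genes, in bases from the annotated start at 0, with the bases after the start drawn as thick gray bars. An ISRE-type match stands in 5 of the 6 windows drawn, Gbp2b included, and GAS matches stand in Gbp5 and Gbp7 only.

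The values are FPKM, fragment numbers scaled by transcript length and by library, that were rescaled to 1000000 per library and are here called TPM. They can be compared between genes because they are per length. Depth was estimated from the steps of low values at 30300000 to 35200000 reads per library, and 23012 to 25299 genes were above 0 in a library. The libraries fell into 2 sets by the sum of the deposited FPKM. It was 782919 to 921581 in 5 libraries (BF10 replicate 6, IL-10-Fc replicate 7, aCSF1R replicate 8 and control replicates 4 and 7), called higher-sum here, and 609695 to 648413 in the other 7. Mitochondrial genes held 5.90% to 9.26% of the sum in the first set and 3.14% to 3.96% in the second. Of the 3 controls 2 were higher-sum, and of the 3 tumors of a treated group 1 was, which partly mixes set and treatment in each comparison with control. Values within a set are therefore given beside the pooled ones.

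All 10 genes passed the filter on low values (at least 1 TPM in at least 3 libraries), as did 15504 genes of the table in all. Gbp2, a prenylated member that marks pathogen vacuoles, had the highest mean level over the 12 libraries at 312 TPM, above 97.2% of the tested genes. Gbp4 followed at 155 TPM and Gbp3 at 99.98 TPM, then Gbp9 at 50.8, Gbp7 at 44.7, Gbp6 at 43.6, Gbp8 at 33.6, Gbp5 at 32.7, Gbp10 at 26.8 and Gbp11 at 2.69 TPM. The order from Gbp2 through Gbp4 and Gbp3 to Gbp9 held in 12 of 12 libraries, and so did Gbp10 above Gbp11. The neighbors in the middle did not separate: Gbp9 was above Gbp7 in 5 of 12 libraries, Gbp7 above Gbp6 in 8, Gbp6 above Gbp8 in 10, Gbp8 above Gbp5 in 6 and Gbp5 above Gbp10 in 10. Across the 12 libraries the highest value of a gene was between 1.97 times (Gbp2) and 3.88 times (Gbp4) its lowest, and the coefficient of variation ran from 17.8% (Gbp8) to 41.9% (Gbp7). For each of the 10 genes the lowest library was a control, replicate 7 for 8 of them and replicate 5 for Gbp8 and Gbp11.

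Some of these genes share sequence, which limits how far their values can be told apart. Of the distinct stretches of 75 bases in the transcripts of Gbp10, 77.8% also occurred in another gene, and 67.3% did so in Gbp6. Most of this was shared with Gm43302, a gene model on chromosome 5 from 105214907 to 105293695 that spans both, so the values of Gbp6 and Gbp10 are uncertain. The share was 11.3% in Gbp7, 10.3% in Gbp11, 8.04% in Gbp8 and 0.578% to 3.61% in Gbp2, Gbp3, Gbp4, Gbp5 and Gbp9. The models of Gbp4, Gbp8 and Gbp9 overlap on the minus strand of chromosome 5. Gbp11 rested on few reads, 32 in the lowest library if its shortest transcript is taken and 214 in the highest if its longest is.

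The comparisons with control ask what each treatment did to the family. The genes were chosen with these comparisons already known, so the values against control are a description and carry no test. Each comparison used the same 3 control libraries. In all 3 treated groups the mean level of each of the 10 genes was above its mean in control on this scale. For Gbp8, Gbp9 and Gbp11 the direction in 1 or 2 of the groups turned under other scalings or, for Gbp8, other fits, given below. The sum over the 10 genes was 520 ± 93.9 TPM in control and 893 ± 40.4 TPM in aCSF1R, while IL-10-Fc tumors had 907 ± 87.4 TPM and BF10 tumors 888 ± 147 TPM (SD, n = 3 each). The control tumors ranged from 437 to 622 TPM and the 9 treated tumors from 751 to 1044 TPM, without overlap. In whole tumor RNA, more cells that express a gene and more RNA per cell cannot be told apart.

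**Figure D2:**
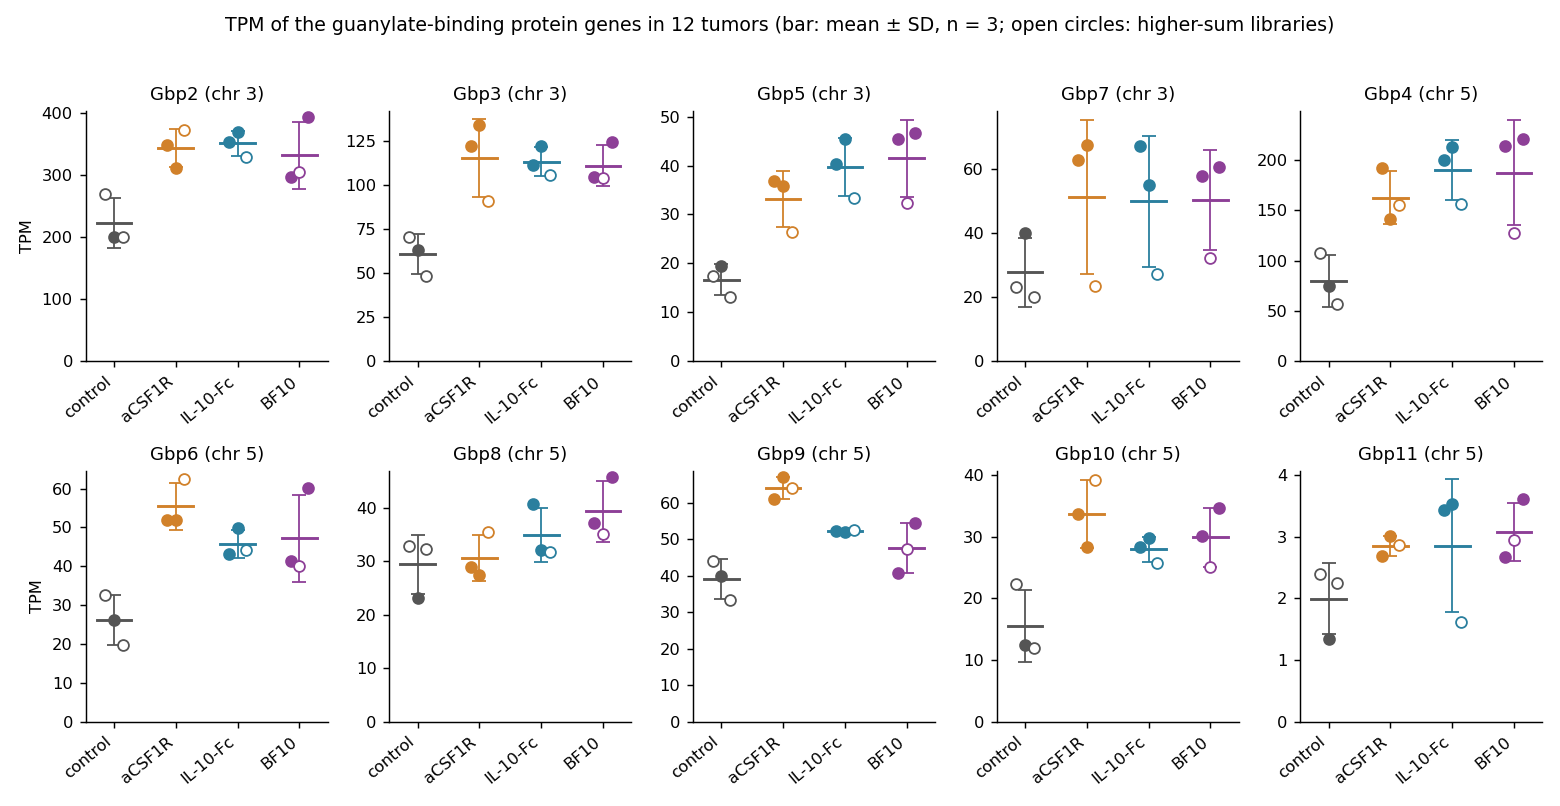
TPM of the 10 genes (1 panel each, y axis in TPM from 0) in the 12 tumors by group, with the mean and SD of 3 tumors as a line and error bar. Open circles are the 5 higher-sum libraries, and in Gbp7 these are the lowest tumor of each treated group, while in Gbp5 the 3 control tumors (13.1 to 19.4 TPM) lie below the 9 treated tumors (26.5 to 46.7 TPM).

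Among the chromosome 3 genes, Gbp5 differed most from control. Gbp5 (ENSMUSG00000105504, chromosome 3, 142493978 to 142522344), known to promote NLRP3 inflammasome assembly, was at 17.5, 19.4 and 13.1 TPM in control replicates 4, 5 and 7. It was at 45.4, 32.4 and 46.7 TPM in BF10 replicates 3, 6 and 7, at 40.2, 45.3 and 33.4 TPM in IL-10-Fc replicates 2, 4 and 7, and at 36.9, 35.9 and 26.5 TPM in aCSF1R replicates 4, 6 and 8. No treated tumor came down to the highest control, and the lowest tumor of each treated group was its higher-sum library. The means were 2.49, 2.38 and 1.99 times that of control in BF10, IL-10-Fc and aCSF1R. On the log2(TPM + 1) scale, which understates differences of low genes, the difference from control was 1.27 (SE 0.25), 1.21 (SE 0.25) and 0.95 (SE 0.25) in BF10, IL-10-Fc and aCSF1R.

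Gbp3 (ENSMUSG00000028268, chromosome 3, 142560026 to 142573209) was at 70.4, 63.3 and 48.2 TPM in control replicates 4, 5 and 7. Its values were 104, 104 and 124 TPM in BF10 replicates 3, 6 and 7, 111, 122 and 106 TPM in IL-10-Fc replicates 2, 4 and 7, and 122, 134 and 90.9 TPM in aCSF1R replicates 4, 6 and 8. All 9 treated tumors were above the 3 controls. The log2 differences were 0.87 (SE 0.22), 0.90 (SE 0.22) and 0.92 (SE 0.22) in BF10, IL-10-Fc and aCSF1R.

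Gbp2 (ENSMUSG00000028270, chromosome 3, 142620602 to 142638008) was at 269, 200.2 and 199 TPM in control replicates 4, 5 and 7, and at 296, 305 and 393 TPM in BF10 replicates 3, 6 and 7. It reached 353, 370 and 329 TPM in IL-10-Fc replicates 2, 4 and 7 and 348, 311 and 372 TPM in aCSF1R replicates 4, 6 and 8. No treated tumor overlapped with the controls, and the nearest pair was control replicate 4 and BF10 replicate 3. The log2 differences were 0.57 (SE 0.19), 0.66 (SE 0.19) and 0.63 (SE 0.19) in BF10, IL-10-Fc and aCSF1R. Gbp2 held 43.0% ± 2.82 (SD, n = 3) of the family sum in control and 37.4% to 38.8% as means of the treated groups, with overlapping tumors.

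Gbp7 (ENSMUSG00000040253, chromosome 3, 142530342 to 142550149) was the member whose level followed the library set. It was at 23.2, 39.95 and 20.02 TPM in control replicates 4, 5 and 7, at 57.8, 32.3 and 60.6 TPM in BF10 replicates 3, 6 and 7, at 67.3, 54.9 and 27.3 TPM in IL-10-Fc replicates 2, 4 and 7, and at 62.7, 67.3 and 23.6 TPM in aCSF1R replicates 4, 6 and 8. The higher-sum libraries gave 20.02 to 32.3 TPM and the lower-sum libraries 39.95 to 67.3 TPM, so that each treated group overlapped with control. With the groups held in the model, Gbp7 was 1.07 lower on the log2 scale in the higher-sum libraries (SE 0.12, limma adjusted p = 2.8e-05), beside a median of -0.68 over all tested genes, of which 59.2% were called. Gbp5 was 0.40 lower there (SE 0.10, adjusted p = 0.0044), short of a 1.5-fold difference, and the other 8 genes had adjusted p of 0.121 or more. The difference of Gbp7 from control was 0.84 (SE 0.48) in BF10 in the fit of 4 group means and 0.49 (SE 0.16) with the set as a term.

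On chromosome 5, Gbp4 and the pair Gbp6 and Gbp10 stood furthest from control. Gbp4 (ENSMUSG00000079363, chromosome 5, 105115767 to 105139586) was at 107, 74.7 and 56.9 TPM in control replicates 4, 5 and 7 and at 214, 127 and 221 TPM in BF10 replicates 3, 6 and 7. It reached 201, 213 and 156 TPM in IL-10-Fc replicates 2, 4 and 7 and 192, 141 and 155 TPM in aCSF1R replicates 4, 6 and 8, with no overlap with control. Its means were 2.35, 2.39 and 2.04 times that of control in BF10, IL-10-Fc and aCSF1R. The log2 differences were 1.23 (SE 0.29), 1.279 (SE 0.29) and 1.06 (SE 0.29).

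Gbp6 (ENSMUSG00000104713, chromosome 5, 105270702 to 105293698) was at 19.6 to 32.5 TPM in control, 40.2 to 60.1 TPM in BF10, 43.3 to 49.8 TPM in IL-10-Fc and 51.8 to 62.4 TPM in aCSF1R. Gbp10 (ENSMUSG00000105096, chromosome 5, 105215699 to 105239533) was at 11.9 to 22.3 TPM in control, 25.1 to 34.7 TPM in BF10, 25.7 to 29.8 TPM in IL-10-Fc and 28.3 to 39.3 TPM in aCSF1R. Neither gene overlapped with control in any treated group, and most of the sequence of both is shared with Gm43302. In aCSF1R they gave the highest log2 differences of the family, 1.08 (SE 0.25) for Gbp6 and 1.11 (SE 0.28) for Gbp10.

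Gbp9 (ENSMUSG00000029298, chromosome 5, 105077630 to 105139539) was at 44.1, 39.8 and 33.4 TPM in control replicates 4, 5 and 7 and at 40.9, 47.4 and 54.5 TPM in BF10 replicates 3, 6 and 7, so that these groups overlapped. It reached 52.3, 52.1 and 52.5 TPM in IL-10-Fc replicates 2, 4 and 7 (SD 0.224 TPM), and 61.0, 67.0 and 64.1 TPM in aCSF1R replicates 4, 6 and 8. The log2 differences from control were 0.28 (SE 0.19), 0.42 (SE 0.19) and 0.71 (SE 0.19) in BF10, IL-10-Fc and aCSF1R.

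Gbp8 (ENSMUSG00000034438, chromosome 5, 105014150 to 105139540) stood closest to control in IL-10-Fc and aCSF1R. It was at 23.1 to 32.9 TPM in control, 35.05 to 45.8 TPM in BF10, 31.8 to 40.7 TPM in IL-10-Fc and 27.4 to 35.4 TPM in aCSF1R. Of the treated groups, only BF10 lay above all 3 controls. The log2 differences were 0.42 (SE 0.23), 0.25 (SE 0.23) and 0.06 (SE 0.23) in BF10, IL-10-Fc and aCSF1R. Gbp8 held 5.77% ± 1.45 (SD, n = 3) of the family sum in control and 3.44% ± 0.54 (SD, n = 3) in aCSF1R. Gbp11 (ENSMUSG00000092021, chromosome 5, 105323042 to 105346472) was at 1.33 to 2.40 TPM in control, 2.67 to 3.602 TPM in BF10, 1.61 to 3.53 TPM in IL-10-Fc and 2.68 to 3.00 TPM in aCSF1R, and its log2 differences of 0.46, 0.34 and 0.38 (SE 0.28 each) are understated most by the scale.

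Read as a group, the 10 genes had a median log2 difference from control of 0.84, 0.80 and 0.85 in BF10, IL-10-Fc and aCSF1R, beside medians over all tested genes of 0.32, 0.35 and 0.24. The groups did not overlap, with the treated one higher, for 8 of 10 genes in BF10, 7 of 10 in IL-10-Fc and 8 of 10 in aCSF1R, where the shares over all tested genes were 2.36%, 4.75% and 1.61%. The genes that overlapped with control were Gbp7 and Gbp9 in BF10, Gbp7, Gbp8 and Gbp11 in IL-10-Fc, and Gbp7 and Gbp8 in aCSF1R. A gene was called at a limma adjusted p below 0.05 with at least a 1.5-fold difference. In each comparison 0 of 10 genes were called, with 0%, 0.00645% and 0.568% of all tested genes called (in either direction) in BF10, IL-10-Fc and aCSF1R and 234, 224 and 537 of them at an unadjusted p below 0.05.

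Within the library sets the medians stayed above 0. Among the lower-sum libraries (2 treated tumors against control replicate 5), 10 of 10 genes were higher in each treated group, with medians of 0.83, 0.86 and 0.80 in BF10, IL-10-Fc and aCSF1R beside -0.05, -0.07 and 0.02 over all genes. Among the higher-sum libraries (1 treated tumor against control replicates 4 and 7), 10, 8 and 10 of 10 genes were higher, with medians of 0.57, 0.56 and 0.70 beside 0.18, 0.33 and -0.16, and Gbp8 and Gbp11 were the 2 genes that were lower in IL-10-Fc. With the set as a term, the medians were 0.69, 0.74 and 0.76 beside 0.07, 0.10 and 0.01 over all genes. In that fit the threshold for a call was passed by 0 genes of the family in BF10, 1 in IL-10-Fc (Gbp5) and 5 in aCSF1R (Gbp3, Gbp5, Gbp6, Gbp9 and Gbp10), beside 0%, 0.0193% and 0.0774% of all genes on the higher side. With sample quality weights it was passed by 7 genes of the family in each treated group, beside 52.1%, 54.6% and 56.4% of all genes. Since the family was chosen on these comparisons, the counts describe the fits and are no test of it.

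Scaling by the median of ratios moved the median of all genes in BF10 against control from 0.32 to 0.01, and the direction of the lowest members with it. The family medians were then 0.46, 0.36 and 0.62 in BF10, IL-10-Fc and aCSF1R beside 0.01, -0.01 and 0.03 over all genes. Relative to the median of all genes, the family stood 0.52, 0.45 and 0.62 higher on the first scale and 0.45, 0.37 and 0.59 higher on the second. Gbp9 in BF10 (-0.10), Gbp8 (-0.20), Gbp9 (-0.02) and Gbp11 (-0.03) in IL-10-Fc, and Gbp8 in aCSF1R (-0.17) turned to the lower side of control under this scaling, and with FPKM not rescaled Gbp8 did so in aCSF1R (-0.11).

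**Figure D3:**
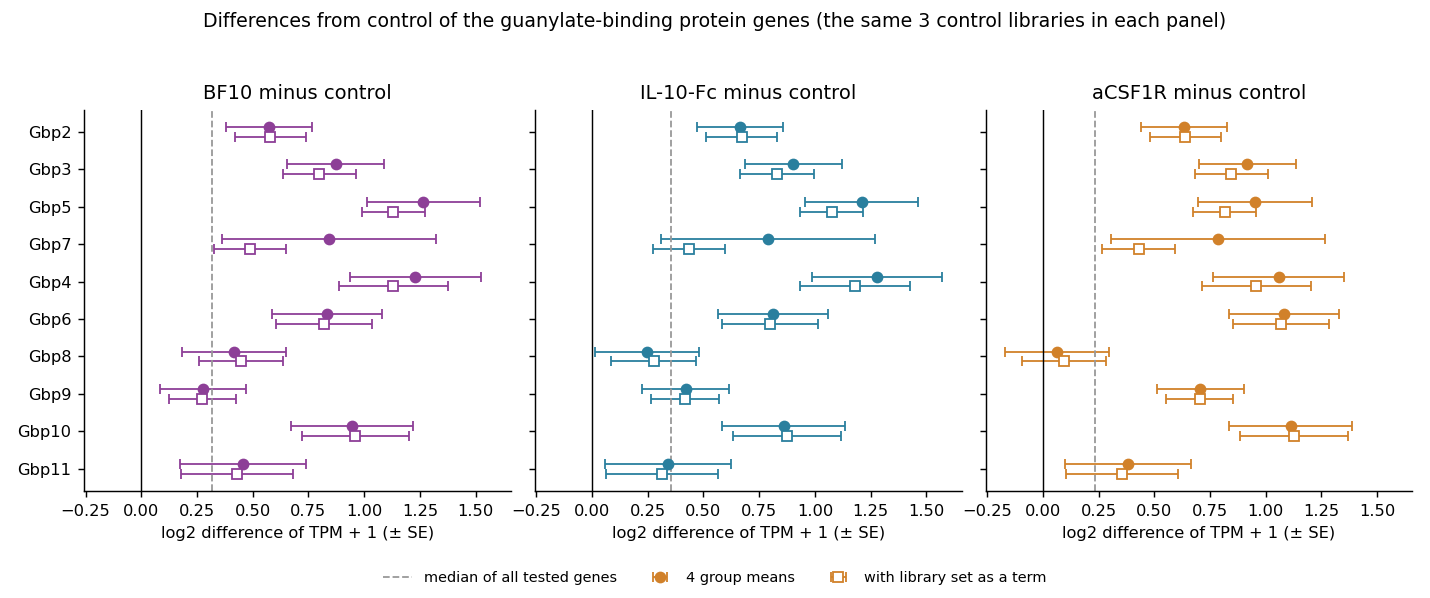
Log2 differences of TPM + 1 from control (x axis, ± SE) for the 10 genes (y axis) in BF10, IL-10-Fc and aCSF1R, each against the same 3 control libraries, with filled circles for the fit of 4 group means, open squares for the fit with the library set as a term and a dashed line at the median of all tested genes. The points lie right of 0 in each panel, although Gbp8, Gbp9 and Gbp11 turned to the left in some of them under median-of-ratios scaling, Gbp8 in aCSF1R at 0.06 is the lowest, and Gbp7 moves most between the fits.

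Comparing the treated groups with each other asks whether BF10 acted on the family differently from its components. The differences in these contrasts do not use the control libraries, and each treated group holds 1 higher-sum library. Their intervals and p-values rest on a spread estimated from all 12 libraries, controls included. No gene of the family was called in BF10 against IL-10-Fc (0% of all genes called, 42 of 15504 at an unadjusted p below 0.05), in BF10 against aCSF1R (0.735% called, 661 unadjusted) or in IL-10-Fc against aCSF1R (0.542% called, 552 unadjusted), and the limma adjusted p was 1 for each of the 10 genes in all 3 contrasts. The medians over the family were 0.04, 0.01 and -0.01 on the log2 scale. With 3 tumors per group these tests had wide intervals, and a p that misses the threshold does not show that the groups were alike. The p-values measure the spread between tumors within the 4 groups, and the labels do not state that the tumors came from separate experiments.

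In BF10 against IL-10-Fc the differences ran from -0.14 (Gbp9) to 0.17 (Gbp8). For Gbp5 it was 0.06 with a 95% interval of -0.51 to 0.62, for Gbp2 -0.09 with an interval of -0.52 to 0.33, and for Gbp4 -0.05 with an interval of -0.69 to 0.60. For none of the 10 genes did these groups separate, while 1.51% of all genes were lower in BF10 without overlap.

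In BF10 against aCSF1R, Gbp9 was the 1 gene whose groups did not overlap, with 40.9 to 54.5 TPM in BF10 and 61.0 to 67.0 TPM in aCSF1R (1.58% of all genes were lower in BF10 without overlap). Its difference was -0.43 with a 95% interval of -0.86 to -0.00049 and an unadjusted p of 0.0498 from limma, the only one of the 10 below 0.05, and the adjusted p was 1. The difference was -0.43 within each library set (2 tumors against 2 in the lower-sum set, 1 against 1 in the higher-sum set). The number of the 10 genes with an unadjusted limma p below 0.05 depended on the fit. It was 0 with only the 2 groups compared, a pseudocount of 0.1, FPKM not rescaled, median-of-ratios scaling or a replicate block. Those fits had 446 to 917 of all genes below 0.05. Dropping the filter gave 1 of the 10, beside 1368 of 34194 genes. The set term gave 2, beside 1714 of 15504 genes, and 1 when joined to median-of-ratios scaling, beside 2231. Sample quality weights gave 3, beside 1950 of 15504 genes. Gbp8 and Gbp5 leaned the other way, at 0.35 with an interval of -0.16 to 0.87 and at 0.31 with an interval of -0.25 to 0.88.

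In IL-10-Fc against aCSF1R, Gbp9 (52.1 to 52.5 against 61.0 to 67.0 TPM) and Gbp6 (43.3 to 49.8 against 51.8 to 62.4 TPM) were lower in IL-10-Fc without overlap, as were 1.6% of all genes. The differences were -0.29 with an interval of -0.72 to 0.14 for Gbp9 and -0.27 with an interval of -0.81 to 0.28 for Gbp6. Gbp5 stood at 0.26 with an interval of -0.30 to 0.82. For Gbp7 the intervals reached about 1 on either side of 0 in each of the 3 contrasts (-1.01 to 1.11, -1.003 to 1.12 and -1.05 to 1.07), the widest of the family.

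**Figure D4:**
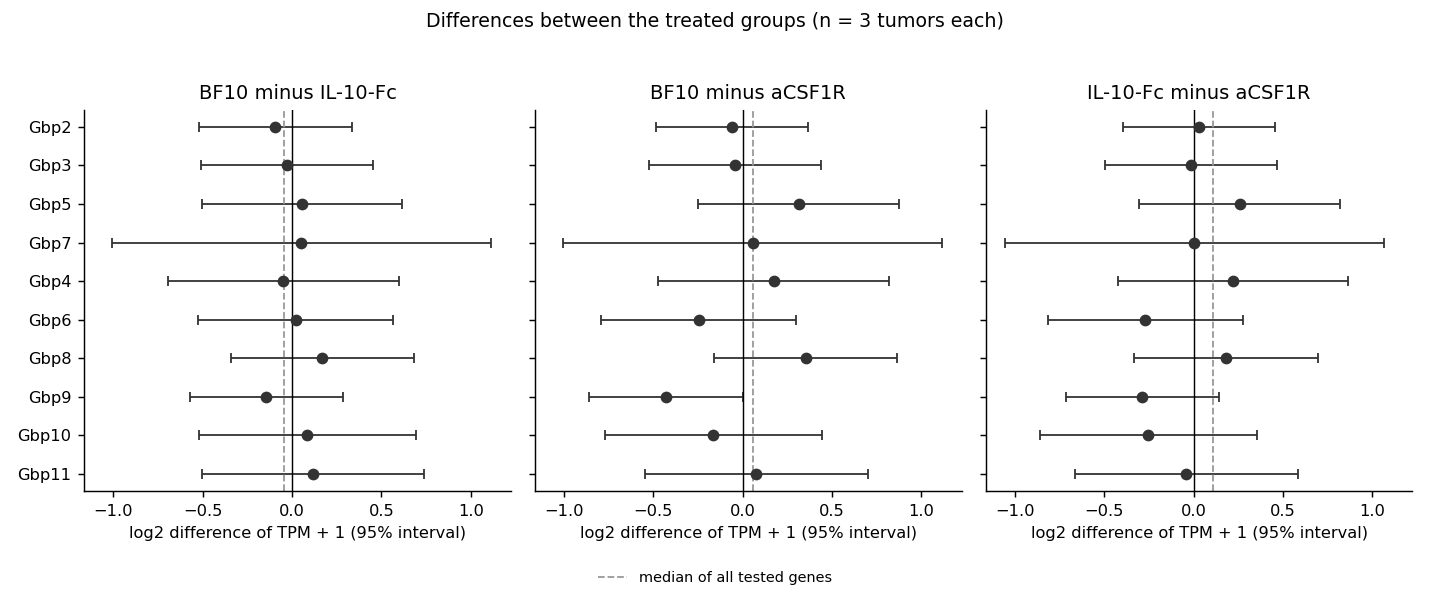
Log2 differences of TPM + 1 between the treated groups (x axis, with 95% intervals from limma) for the 10 genes (y axis), 3 tumors per group, with a dashed line at the median of all tested genes. Of the 30 intervals 29 cross 0, and the exception is Gbp9 in BF10 minus aCSF1R, which ends at -0.00049.

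BF10 joins both components, and a contrast of the 4 groups gives how far its difference from control lay from the sum of the other 2 differences from control (its own difference minus that sum). This contrast uses the control libraries, so its values are a description, like those against control. It was below 0 for 9 of 10 genes, with a median of -0.87 beside -0.28 over all genes. The threshold for a call was passed by 0 of the 10 genes and by 0.29% of all genes, from which nothing is read. The values ran from -1.11 (Gbp4) to 0.11 (Gbp8). For Gbp5 it was -0.90 (SE 0.36) and for Gbp2 -0.73 (SE 0.27).

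The other genes of the pathway were taken from fixed lists, which were chosen with earlier results of these data known. Calls of list genes against control therefore describe the fits and are no test. Interferon-gamma signalling was followed in 12 genes, and 0 of the 12 were called in any of the 6 comparisons of 2 groups. Over all genes 0% to 0.735% were called in these comparisons, so a count of 0 in a list this short says little about it. Its median difference from control was 0.67, 0.55 and 0.32 in BF10, IL-10-Fc and aCSF1R, beside 0.32, 0.35 and 0.24 over all genes. In the fit with the set term it was 0.32, 0.26 and 0.12, beside 0.07, 0.10 and 0.01. Ifng itself, the cytokine, was scarce, at 1.45, 0.873 and 0.721 TPM in control replicates 4, 5 and 7, at 3.05, 1.495 and 2.27 TPM in BF10 replicates 3, 6 and 7, at 2.18, 2.33 and 1.37 TPM in IL-10-Fc replicates 2, 4 and 7 and at 1.48, 1.56 and 1.71 TPM in aCSF1R replicates 4, 6 and 8. The BF10 and aCSF1R tumors lay above the controls by a narrow margin, and IL-10-Fc overlapped with them. Irf1, a transcription factor that interferon-gamma induces, was at 124 ± 61.2 TPM (SD, n = 3) in control and 189 to 230 TPM as means of the treated groups. Among the higher-sum libraries Irf1 was at 76.8 and 101 TPM in control and 81.5 to 168 TPM in the treated tumors. Among the lower-sum libraries it was at 193 TPM in control replicate 5 and 231 to 280 TPM in the treated tumors. Socs1, an inhibitor of the pathway, was at 7.33 ± 2.51 TPM (SD, n = 3) in control, 6.79 ± 0.50 in aCSF1R, 8.14 ± 2.25 with IL-10-Fc and 9.39 ± 0.40 TPM with BF10 (SD, n = 3 each).

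Type I interferon signalling (14 of 15 genes tested) had 0 genes called in the 6 comparisons, beside 0% to 0.735% of all genes. Its median differences from control were 0.59, 0.28 and 0.84 in BF10, IL-10-Fc and aCSF1R, of which the second lies below the median of all genes (0.35). With the set as a term they were 0.24, 0.03 and 0.40. Isg15, a ubiquitin-like protein that interferons induce, was at 47.2 ± 24.5 TPM (SD, n = 3) in control and 105 ± 65.4 TPM (SD, n = 3) in aCSF1R, a spread as wide as the difference.

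The other interferon-inducible GTPases (10 of 11 genes tested) had medians of 0.86, 0.83 and 0.87 from control in BF10, IL-10-Fc and aCSF1R. In each treated group 10 of 10 genes were higher than control, where 77.4%, 79.7% and 73.5% of all genes were higher. The count called was 0, beside 0%, 0.00645% and 0.568% of all genes. With the set as a term the medians were 0.59, 0.52 and 0.63, beside 0.69, 0.74 and 0.76 for the guanylate-binding proteins. Igtp, an immunity-related GTPase that guards host membranes, was at 84.5 ± 27.0 TPM (SD, n = 3) in control and at 185 ± 75.6 in aCSF1R, 189 ± 72.8 with IL-10-Fc and 199 ± 82.4 TPM with BF10 (SD, n = 3 each). It was called in aCSF1R against control with the library set as a term (0.72, limma adjusted p = 0.0318), where 0.0774% of all genes were called as higher. Irgm1, a regulator of the same GTPases, was at 57.7 ± 32.0 TPM (SD, n = 3) in control and 126 to 147 TPM as means of the treated groups. Among the higher-sum libraries Irgm1 was at 32.5 and 47.0 TPM in control and 46.2 to 53.9 TPM in the treated tumors. Among the lower-sum libraries it was at 93.6 TPM in control replicate 5 and 139 to 215 TPM in the treated tumors. Iigp1, an effector at pathogen vacuoles, was at 136 ± 50.1 TPM (SD, n = 3) in control and 178 to 200 TPM as means of the treated groups.

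The inflammasome partners (9 of 10 genes tested) had medians from control of 0.18, 0.11 and -0.26 in BF10, IL-10-Fc and aCSF1R. The medians over all genes were 0.32, 0.35 and 0.24. Of the 9 genes 6, 5 and 3 were higher than control. With the set as a term the list medians were 0.11, 0.09 and -0.20, beside 0.07, 0.10 and 0.01 over all genes. Casp4, which encodes caspase-11, was at 34.5 ± 15.1 TPM (SD, n = 3) in control and 35.5 to 40.04 TPM as means of the treated groups, and Gsdmd, the pore-forming gasdermin D, at 66.4 ± 21.4 TPM (SD, n = 3) and 76.6 to 89.8 TPM. Pycard, the adaptor ASC, was the 1 gene of the list that was called. Its log2 difference was -2.41 in aCSF1R against control (SE 0.26), where 0.568% of all genes were called. Against aCSF1R it was 2.44 for BF10 (limma adjusted p = 0.0017, 0.735% of all genes called). For IL-10-Fc against aCSF1R it was 2.07 (limma adjusted p = 0.0058, 0.542% called). Nlrp3, the sensor that Gbp5 is known to act on, was at 0.98 ± 0.50 TPM (SD, n = 3) in aCSF1R, 2.49 ± 1.59 in control, 4.12 ± 0.81 with IL-10-Fc and 5.14 ± 2.96 TPM with BF10 (SD, n = 3 each). Nlrp3 (1.54 and 1.39) and the DNA sensor Aim2 (1.02 and 0.92) were called as higher in BF10 and in IL-10-Fc than in aCSF1R with the library set as a term only (adjusted p = 0.0025, 0.0064, 0.0134 and 0.0297 in this order, with 2.77% and 2.12% of all genes called as higher). That fit also called Nlrp3 as lower in aCSF1R than in control (-1.04), beside 1.93% of all genes.

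The ATG conjugation machinery, which is known to direct guanylate-binding proteins to membranes, had 0 of 10 genes called, with medians from control of -0.06, 0.02 and 0.02 in BF10, IL-10-Fc and aCSF1R, and of -0.03, 0.04 and -0.07 with the set as a term. Gabarapl2, an ATG8 protein, was at 111 ± 21.6 TPM (SD, n = 3) in control and 105 to 108 TPM as means of the treated groups. Atg5 was at 31.8 ± 6.59 TPM (SD, n = 3) in control and 26.4 to 28.3 TPM as means of the treated groups.

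Macrophages respond to interferon-gamma and are the cells that the antibody is directed against, so their markers were set beside the family. The summed TPM of 10 macrophage markers was 82.4 to 266 in aCSF1R, 1753 to 1817 in BF10, 1477 to 1684 in IL-10-Fc and 1769 to 2262 in control, with 0 of the 10 markers at 0 in all tumors of a group. Of the 10, 6 markers (Adgre1, Mrc1, C1qa, C1qb, C1qc and Msr1) were called as lower in aCSF1R than in control, beside 0.568% of all genes. Their log2 differences were -2.05 (Adgre1) to -4.05 (C1qc). With the set as a term 9 of the 10 were called as lower, beside 1.93% of all genes. In the same aCSF1R tumors the guanylate-binding protein sum was 867 to 939 TPM, inside the range of the other treated tumors and above the controls. Csf1r, the receptor gene, was at 11.99 ± 9.85 TPM (SD, n = 3) in aCSF1R and 49.9 ± 38.3 TPM (SD, n = 3) in control. Gbp3, Gbp6, Gbp7, Gbp9 and Gbp10 had their highest group means in TPM in aCSF1R. The margins were small for Gbp3 (115.5 against 113.0 TPM in IL-10-Fc) and Gbp7 (51.2 against 50.2 TPM in BF10). Gbp2 and Gbp4 had theirs in IL-10-Fc, and Gbp5, Gbp8 and Gbp11 in BF10. The part of macrophages in the family's values was not tested.

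Of the other 8 marker lists, 1 gave sums that did not overlap between a treated group and control, that of NK cells in IL-10-Fc. The 10 T cell markers summed to 46.8 to 100.1 TPM in control, 38.2 to 100.2 TPM in BF10, 58.6 to 81.8 TPM in IL-10-Fc and 36.9 to 65.5 TPM in aCSF1R. The 6 NK cell markers summed to 22.7 to 29.8 TPM in IL-10-Fc, 32.5 to 40.5 TPM in control and 23.5 to 42.6 TPM in the other tumors. Of them Klrk1 was called as higher in BF10 than in aCSF1R (1.35, limma adjusted p = 0.0445), beside 0.735% of all genes. In that comparison 2 of the 6 were higher, with a list median of -0.08 beside 0.06 over all genes. The 7 neutrophil markers summed to 16498 TPM in BF10 replicate 3 and to 429 to 3346 TPM in the other 11 tumors, and the guanylate-binding protein sum of BF10 replicate 3 was 870 TPM, between those of BF10 replicates 6 and 7. The 6 fibroblast markers summed to 506 to 1794 TPM in control and 561 to 5639 TPM in the treated tumors, and the 6 epithelial markers to 752 to 2567 TPM over all tumors. Over all genes the median log2 differences from control were 0.32, 0.35 and 0.24 in BF10, IL-10-Fc and aCSF1R, with 77.4%, 79.7% and 73.5% higher. With the set as a term they were 0.07, 0.10 and 0.01. The fibroblast markers had medians of 0.77, 0.95 and 0.60, with 5 of 6 higher in each, and of 0.25, 0.56 and -0.01 with the set as a term. The neutrophil markers had 1.37, 0.64 and 0.11, with 7, 7 and 4 of 7 higher, and 1.25, 0.41 and 0.03 with the set as a term. The endothelial markers had 0.51, 0.73 and 0.21, and 0.07, 0.30 and -0.16 with the set as a term. The epithelial markers had 0.41, 0.54 and 0.14, the T cell markers 0.19, 0.35 and 0.01 and the NK cell markers -0.30, -0.26 and -0.24. The dendritic cell markers (5 tested) had -0.07, -0.12 and 0.05, and the B cell markers (2 tested) -0.98, -1.25 and -1.10. The 7 dendritic cell markers summed to 3.43 to 12.4 TPM, the 6 endothelial markers to 33.5 to 137 TPM and the 5 B cell markers to 0.781 to 5.69 TPM in 11 tumors and to 67.8 TPM in control replicate 7. No tested marker of these 8 lists other than Klrk1 was called in the 6 comparisons in the fit of 4 group means, beside 0% to 0.735% of all genes. The part of any of these cell types, macrophages included, in the family's values was not tested.

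**Figure D5:**
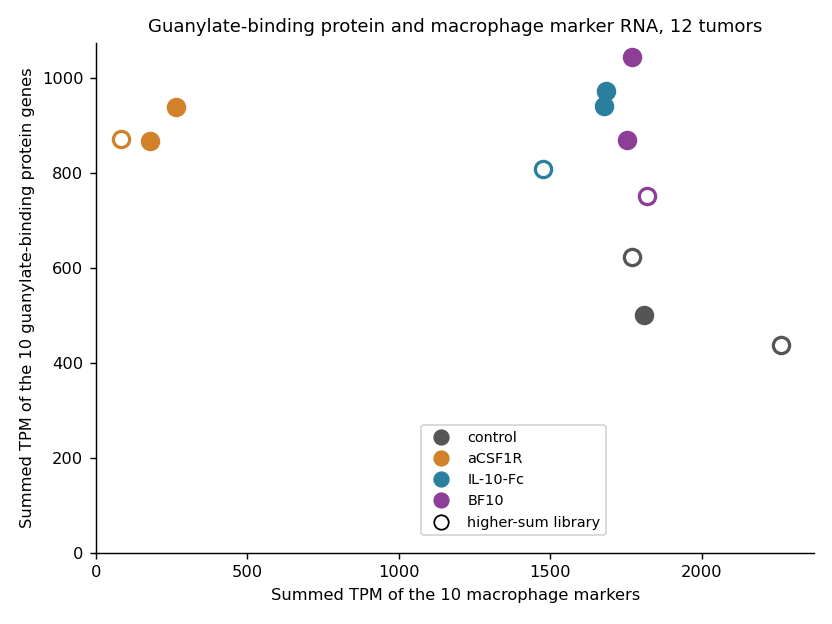
Summed TPM of the 10 guanylate-binding protein genes (y axis) against summed TPM of 10 macrophage markers (x axis), 1 point per tumor, colored by group, with open circles for higher-sum libraries. The aCSF1R tumors sit at 82.4 to 266 TPM of macrophage markers and the controls at 1769 to 2262 TPM, while the guanylate-binding protein sum is 867 to 939 TPM in the first and 437 to 622 TPM in the second.

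The genes most like the family were taken by Pearson's r with the mean log2(TPM + 1) of the 10 genes over the 12 libraries, after the mean of each library set was subtracted. The points share the 4 groups, so r also holds the difference between control and treated tumors, and no p is given. Of 15494 other tested genes 11 had an r above 0.9, and the median was 0.00. Among the 10 highest were Gm43302 (0.97), Igtp (0.97), Gm12185 (0.95), Olfr753-ps1 (0.94), Gbp2b (0.94), Ly6a (0.93), Ifi47 (0.93), Zbp1 (0.93) and A530032D15Rik (0.92). Gm43302 holds most of the transcript sequence of Gbp6 and Gbp10, and Gbp2b is the neighbor of Gbp2 on chromosome 3. Igtp and Ifi47 are immunity-related GTPases, on the list of other interferon-inducible GTPases with Gm12185, and Zbp1 is a sensor of Z-form nucleic acid. Within the 7 lower-sum libraries alone the values of these genes ran from 0.90 (Ifi47) to 0.99 (Gm43302). Without the centering Gm43302 kept 0.98 and Ly6a had 0.62. Ifng stood at 0.78, Irf1 at 0.56, Socs1 at 0.41, Cd3e (a T cell receptor component) at 0.10 and Csf1r at -0.33, and within the lower-sum libraries Irf1 stood at 0.89 and Cd3e at 0.81.

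Each member is itself part of the mean, which raises its own r. It was highest for Gbp2 (0.98), Gbp10 (0.97) and Gbp4 (0.95) and lowest for Gbp8 (0.61), Gbp11 (0.70) and Gbp9 (0.77). Over the 45 pairs of members none was below 0. The median r was 0.87 for the 6 pairs on chromosome 3, 0.64 for the 15 pairs on chromosome 5 and 0.69 for the 24 pairs across the clusters. Gbp6 and Gbp10, which share sequence, gave the highest value (0.96), followed by Gbp2 with Gbp10 (0.95), a pair from different clusters, and Gbp8 with Gbp9 the lowest (0.10) although their gene models overlap.

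Gbp2b (ENSMUSG00000040264, chromosome 3, 142594847 to 142619179), a further guanylate-binding protein gene between Gbp3 and Gbp2, was no listed member. It was at 235, 155 and 178 TPM in control replicates 4, 5 and 7, 241, 242 and 315 TPM in BF10 replicates 3, 6 and 7, 279, 294 and 269 TPM in IL-10-Fc replicates 2, 4 and 7 and 260, 221 and 309 TPM in aCSF1R replicates 4, 6 and 8. BF10 and IL-10-Fc lay above the controls and aCSF1R overlapped with them, with log2 differences of 0.50, 0.59 and 0.48 (SE 0.21 each). The pseudogene Gbp2-ps was listed at 0 in the 12 libraries.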

How the data were processed

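RNA of 12 orthotopic 4T1 tumors was extracted with TRIzol by the authors, made into TruSeq stranded mRNA libraries and sequenced on an Illumina NextSeq. The submitters' processing notes name STAR 2.7.5a, RSEM 1.3.3 and DESeq2 1.28.0 with the build mm10 (GRCm38), without saying which of them made the table. The authors deposited FPKM values with up to 2 decimals for 55401 genes, and the counts behind them were not used here. A further 4 deposited tables hold the authors' own DESeq2 comparisons, with log2 fold changes, p-values and mean normalized counts, and none of their values was used. Each FPKM column was matched to its sample by name (0 left unmatched).

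FPKM is not a count, so no count model was run. FPKM was divided by its library's sum (TPM scale), genes with at least 1 TPM in at least 3 libraries were kept (15504 of 34194 above 0 in some library), and log2(TPM + 1) was fitted in R 4.3.3 by limma 3.58.1, whose eBayes step used a trend, with 4 group means, 12 libraries and 8 residual degrees of freedom. Benjamini-Hochberg adjustment ran over all tested genes, and 7 contrasts were made. Depth was estimated from whole-read steps of low FPKM in genes with 1 transcript, assuming reads of 75 bases, and 83.7% to 86.5% of those low values lay within 0.2 of a whole read. Counts being estimated, intervals of single values are not given.

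The members and lists were chosen with earlier results of these data known, and differences of the members and of the list genes from control carry no test for that reason. Named genes were the listed genes, further Gbp symbols, fixed examples of each list, up to 4 other called genes per list, and the 10 genes most like the family. A named gene of the lists is not reported here. Alternatives were a pseudocount of 0.1, FPKM not rescaled, median-of-ratios scaling, no filter, only the groups compared, the library set as a term (boundary 700000 FPKM), a replicate block, sample quality weights and leaving out each library. The set term with median-of-ratios scaling was added after seeing the data.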

Additional observations from a re-analysis of the deposited data

How the results depend on the processing

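With FPKM not rescaled, a pseudocount of 0.1, no filter on low values, only the groups compared or any 1 library left out, 0 of 10 guanylate-binding protein genes were called in each contrast run (the contrast of 4 groups was not run with only the groups compared), and the family medians kept their direction against control. Sample quality weights called 7 genes in each comparison with control and 7 in the contrast of 4 groups, where 57.8% to 63.8% of all genes were called. Against control, the library set as a term called 5 genes in aCSF1R and 1 in IL-10-Fc, beside 2.01% and 0.0258% of all genes in either direction. The set term with median-of-ratios scaling called 2 in aCSF1R, beside 2.19% of all genes in either direction. Against control, median-of-ratios scaling gave medians of 0.46, 0.36 and 0.62 for BF10, IL-10-Fc and aCSF1R, and -0.58 in the contrast of 4 groups, and with the set term 0.60 in BF10 and 0.58 in IL-10-Fc. Without 1 library the medians against control ran from 0.68 to 0.997 (aCSF1R), from 0.61 to 0.89 (IL-10-Fc) and from 0.65 to 0.92 (BF10), those of the contrast of 4 groups from -1.003 to -0.74, and those between treated groups from -0.11 to 0.17 (BF10 against IL-10-Fc), from -0.12 to 0.07 (BF10 against aCSF1R) and from -0.09 to 0.15 (IL-10-Fc against aCSF1R). Under the replicate block 1 of 10 genes lay below control in IL-10-Fc (Gbp8, -0.026) and 1 in aCSF1R (-0.078). Gbp8 also lay below control in aCSF1R under sample quality weights (-0.17) and, at its lowest, at -0.097 without 1 library. The cause of these shifts was not tested.

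The replicate numbers are shared by 7 pairs of tumors across groups. The correlation of their deviations from the group means ran from -0.66 to 0.42, with 2 of 7 above 0.1, so the numbers were not taken to pair the tumors. The fit with the replicate block left 2 residual degrees of freedom and called 0 genes of the family, with medians of 1.06, 0.77 and 1.02 in BF10, IL-10-Fc and aCSF1R against control, beside 0.62, 0.53 and 0.93 over all genes, so that the family stood 0.44, 0.24 and 0.10 above them. Its median was 0.29 in BF10 against IL-10-Fc, and -0.77 in the contrast of 4 groups beside -0.85 over all genes.

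Between treated groups the differences were small, and several changed sign without coming near the threshold. In BF10 against IL-10-Fc these were Gbp2 (0.17), Gbp3 (0.086) and Gbp4 (0.30) under the block, Gbp3 (0.035) and Gbp4 (0.016) under median-of-ratios scaling with or without the set term, and Gbp4 (0.0040) and Gbp11 (-0.054) under the weights. In BF10 against aCSF1R they were Gbp2 (0.17), Gbp6 (0.042), Gbp7 (-0.41) and Gbp10 (0.13) under the block, Gbp2 (0.12), Gbp6 (0.059), Gbp7 (-0.13) and Gbp10 (0.055) under the weights, and Gbp7 (-0.084) and Gbp11 (-0.052) under median-of-ratios scaling with or without the set term. In IL-10-Fc against aCSF1R they were Gbp4 (-0.042) and Gbp7 (-0.86) under the block, Gbp2 (-0.00075) and Gbp7 (-0.025) without rescaling, Gbp2 (-0.18), Gbp7 (-0.20) and Gbp8 (-0.029) under median-of-ratios scaling with or without the set term, and Gbp7 (-0.20) and Gbp11 (0.25) under the weights. Leaving out 1 library turned the sign in 32 fits over 15 of these differences, at values of -0.47 to 0.22. The ranges of these differences without 1 library, in BF10 against IL-10-Fc, were -0.11 to 0.025 for Gbp3, -0.19 to 0.21 for Gbp4, -0.059 to 0.22 for Gbp5, -0.16 to 0.12 for Gbp6, -0.32 to 0.34 for Gbp7, -0.023 to 0.20 for Gbp10 and -0.14 to 0.26 for Gbp11. In BF10 against aCSF1R they were -0.19 to 0.014 for Gbp2, -0.21 to 0.068 for Gbp3, -0.42 to 0.34 for Gbp7 and -0.015 to 0.15 for Gbp11. In IL-10-Fc against aCSF1R they were -0.038 to 0.0903 for Gbp2, -0.18 to 0.099 for Gbp3, -0.47 to 0.38 for Gbp7 and -0.18 to 0.22 for Gbp11.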
